A study of Mus musculus with 95 samples.

Results

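Cell cycle and DNA replication genes were followed in mouse lung across exposure to Pneumocystis murina, a fungus that lives in the lung of rodents. Of 40 listed genes, 36 had a probe set paired with them alone in the platform annotation and make up the set described here, out of 8251 genes measured in that way. Where a gene had several such probe sets, the brightest was taken, by its mean log2(intensity + 8) over all arrays. Tyms, Ccnb1, Bub1b and Hmmr had no probe set of their own. The list is one of function, but it was chosen with earlier results of these data known. Measured values entered the rule through the choice of probe set.

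The series holds 95 single-colour expression arrays of lung homogenate, 60 from exposed and 35 from unexposed mice, in 19 groups of strain, day and exposure. Exposure meant sharing a cage with a heavily infected seeder mouse, and all mice are labelled female and 8 weeks old. The mice were wild type, with the strain label C57BL, or CD40L-KO, which lack CD40 ligand, a T cell protein through which T cells give help to B cells, dendritic cells and macrophages. The knockout is of the whole animal, and the labels give no allele. Exposed C57BL mice were killed at day 7 (8 mice), day 14 (8), day 21 (6), day 32 (3), day 34 (10), day 41 (10) and day 75 (3). Unexposed C57BL mice were taken at day 7 (4), day 14 (6), day 21 (5), day 32 (2), day 34 (5) and day 41 (5). Exposed CD40L-KO mice were killed at day 32 (3), day 35 (4), day 39 (2) and day 75 (3), and unexposed CD40L-KO mice at day 32 (3) and at a day labelled 14 (5). The last group was taken as the control of day 35, since the design text gives experiment 4 that number of unexposed mice and 4 mice exposed for 35 days.

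A cell that divides first licenses its replication origins by loading the MCM helicase with the help of Cdc6, then copies its DNA in S phase with nucleotides made by ribonucleotide reductase and thymidine kinase. Cyclin-dependent kinase 1 with its cyclins then drives mitosis, in which Aurora and Polo kinases, kinesins and the chromosomal passenger Birc5 (survivin) build and use the spindle. Most cells of the healthy adult lung are at rest, whereas T cells, B cells and some macrophages divide during an infection. In bulk lung RNA, more dividing cells and more transcript per dividing cell cannot be told apart.

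Levels are log2(intensity + 8), whose floor is 3, and differences are differences of mean levels, which understate the change of dim genes. Each is given with its standard error (SE) and the adjusted p of limma, a linear model fitted over all 8251 genes with pooled spread and Benjamini-Hochberg adjustment. A gene was called at an adjusted p under 0.05, and "rose" or "fell" is used for called genes alone. Counts of calls with a mouse left out or under another alternative are given without the share of all genes. Such counts do not compare the members with other genes. The p-values measure the spread between mice. Exposed and unexposed mice of experiments 1 to 3 lived in different cages, which the labels do not link to individual mice, and effects of cage and of exposure cannot be told apart. The number of mice limits the precision. Lung markers were high on all arrays, with the surfactant gene Sftpc between 12.38 and 14.59. On 16 arrays the mean of 11 squamous epithelium markers exceeded 7, among them 4 of 5 unexposed and 3 of 10 exposed C57BL mice of day 34 and, at day 32, 2 of 3 CD40L-KO controls. On 17 arrays of 5 groups the Y-linked Eif2s3y exceeded Xist, against the label female: C57BL day 75, CD40L-KO days 39 and 75, and both groups of the CD40L-KO day 35 comparison.

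Most members were dim to moderate in whole lung. Stmn1, a microtubule destabiliser, was the brightest with a mean level of 8.93, followed by Pcna, the sliding clamp of the replication fork, at 8.04. The helicase subunit Mcm6 lay close to the floor at 3.59, with a highest value of 4.36 on any array, so it carried little information. The spindle checkpoint kinase Bub1 at 4.05 and the primase subunit Prim1 at 4.21 were also dim. These levels come from different probe sets and give no order of abundance between genes. After removing group means, the median correlation between pairs of members over the 95 arrays was 0.21, against 0 for all genes. Birc5 and cyclin B2 (Ccnb2) followed the other members most closely, each with a median correlation of 0.34. Foxm1, a transcription factor of mitotic genes, was at -0.02 and Mcm6 at 0.06. These correlations share arrays and probe-level noise and are descriptions.

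Promoter sequence is shown for 5 members on which the results turn, since genes of S phase and of mitosis are classically read out through different elements. E2F factors act on S phase genes, and the cell cycle genes homology region (CHR), often beside a box bound by NF-Y, on mitotic genes. Of the 36 members, 30 had an entry in the RefSeq promoter table (GRCm38.p6), with 34 promoters, each from 250 bases before to 50 after a start; Mcm4, Ccna2, Aurkb, Kif20a, Stmn1 and Foxm1 had none. The windows are Mki67 (chr7:135716330-135716629, minus strand), Cdk1 (chr10:69352863-69353162, minus strand), Ccnb2 (chr9:70421505-70421804, minus strand), Mcm5 (chr8:75109259-75109558, plus strand) and Birc5 (chr11:117848987-117849286, plus strand). Capitals mark, on either strand, the E2F letters TTTCCCGC, TTTGGCGC or TTTCGCGC, the CHR letters TTTGAA or TTCGAA, and the NF-Y box CCAAT.
Mki67: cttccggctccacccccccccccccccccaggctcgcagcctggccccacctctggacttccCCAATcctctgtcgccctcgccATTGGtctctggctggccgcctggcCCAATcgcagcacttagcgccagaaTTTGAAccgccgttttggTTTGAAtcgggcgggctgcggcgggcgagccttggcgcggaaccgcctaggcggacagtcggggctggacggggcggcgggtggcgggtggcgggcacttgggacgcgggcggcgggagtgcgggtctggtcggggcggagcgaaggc
Cdk1: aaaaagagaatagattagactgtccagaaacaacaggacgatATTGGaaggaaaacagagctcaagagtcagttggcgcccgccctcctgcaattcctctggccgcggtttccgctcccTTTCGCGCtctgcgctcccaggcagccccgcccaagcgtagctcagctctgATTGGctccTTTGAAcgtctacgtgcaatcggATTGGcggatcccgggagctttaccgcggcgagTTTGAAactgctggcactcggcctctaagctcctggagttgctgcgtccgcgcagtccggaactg
Ccnb2: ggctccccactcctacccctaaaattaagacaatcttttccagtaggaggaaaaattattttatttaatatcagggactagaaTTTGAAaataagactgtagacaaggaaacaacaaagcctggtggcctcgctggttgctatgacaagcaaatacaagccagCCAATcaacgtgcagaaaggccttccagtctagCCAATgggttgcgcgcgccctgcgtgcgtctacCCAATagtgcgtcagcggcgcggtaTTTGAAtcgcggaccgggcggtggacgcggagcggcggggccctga
Mcm5: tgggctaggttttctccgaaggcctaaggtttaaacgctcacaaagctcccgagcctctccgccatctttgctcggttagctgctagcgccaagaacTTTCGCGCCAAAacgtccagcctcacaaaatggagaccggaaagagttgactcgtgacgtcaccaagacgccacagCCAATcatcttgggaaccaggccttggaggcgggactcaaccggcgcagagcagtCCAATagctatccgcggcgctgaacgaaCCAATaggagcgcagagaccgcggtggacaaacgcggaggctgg
Birc5: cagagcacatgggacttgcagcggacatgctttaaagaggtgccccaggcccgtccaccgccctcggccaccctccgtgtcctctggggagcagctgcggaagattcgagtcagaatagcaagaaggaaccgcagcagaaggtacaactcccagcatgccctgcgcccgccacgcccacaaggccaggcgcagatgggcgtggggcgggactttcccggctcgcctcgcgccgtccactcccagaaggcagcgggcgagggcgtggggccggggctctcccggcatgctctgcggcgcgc
Positions count the first base of a match from the start, at 1, with no position 0. Cdk1 held the E2F letters at -131, the CHR letters at -71 and -15 and the NF-Y box at -208, -80 and -48. In Mcm5 the E2F letters at -153 and -149 overlap, and in Mki67 the CHR letters lay at -116 and -98. The Birc5 window held none of these letters, which says nothing of which factors bind there.

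Of 19 promoters of the S phase members (licensing, fork and nucleotide supply), 7 (36.8%) held the E2F letters, against 1.8% of all 32851 promoters of that length. Of 14 promoters of the mitotic members 1 (7.1%) did, that of Cdk1. The CHR letters stood in 10 of the 14 mitotic promoters (71.4%) and in 4 of the 19 S phase promoters (21.1%), against 19.2% of all. The NF-Y box was in 78.6% and 63.2%, against 37.4%. The remaining promoter, of E2f1, held none of the 3 motifs. Mcm7 and Fen1 counted with 2 promoters and Lig1 with 3, and a match is a description and not a bound site.

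**Figure D1:**
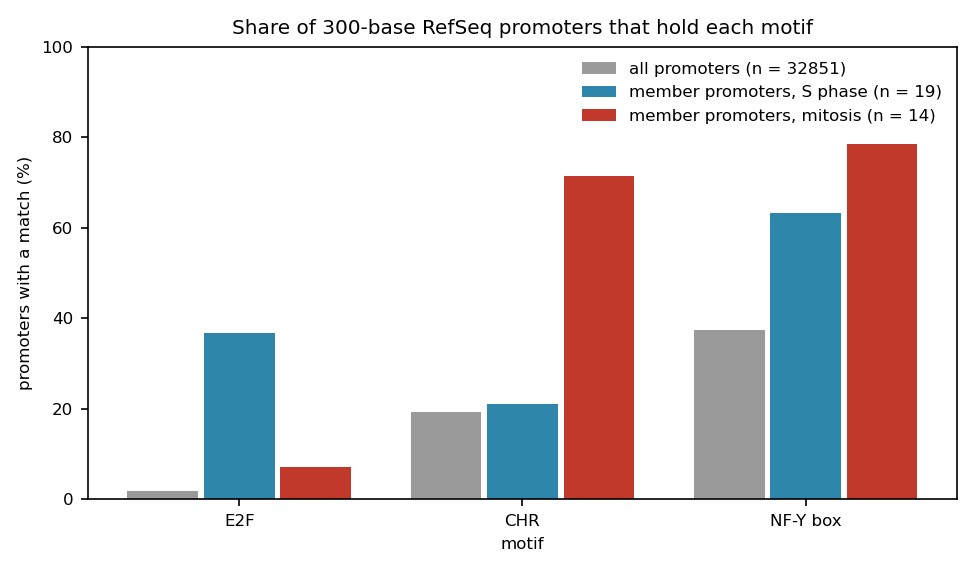
Share of 300-base RefSeq promoters (percent, vertical axis) with at least 1 match to the E2F, CHR or NF-Y letters, for all 32851 promoters, 19 promoters of S phase members and 14 promoters of mitotic members. The E2F share was 36.8% in S phase members and 7.1% in mitotic members, and the CHR share 21.1% and 71.4%.

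The mean level of the 36 members was highest in exposed C57BL mice of days 32 and 34. At day 32 it was 6.86, 6.08 and 6.63 in the 3 exposed mice and 5.45 and 5.68 in the 2 unexposed mice. At day 34 it ran from 6.00 to 6.34, with a median of 6.19, in 10 exposed mice and from 5.54 to 5.86 in 5 unexposed mice. The exposed and unexposed ranges did not overlap on either day. At day 41 exposed mice ran from 5.47 to 6.13 and unexposed mice from 5.44 to 5.78, and they overlapped. In CD40L-KO mice exposed mice lay between 5.51 and 5.66 at day 32 and between 5.15 and 5.28 at day 35, and their controls between 5.31 and 5.59 and between 5.17 and 5.30. Exposed C57BL mice of day 75 were at 5.27 to 5.46. For that day no experiment is stated and no unexposed group was analysed, and Eif2s3y exceeded Xist in these mice. The value is therefore not a later point of the same course.

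**Figure D2:**
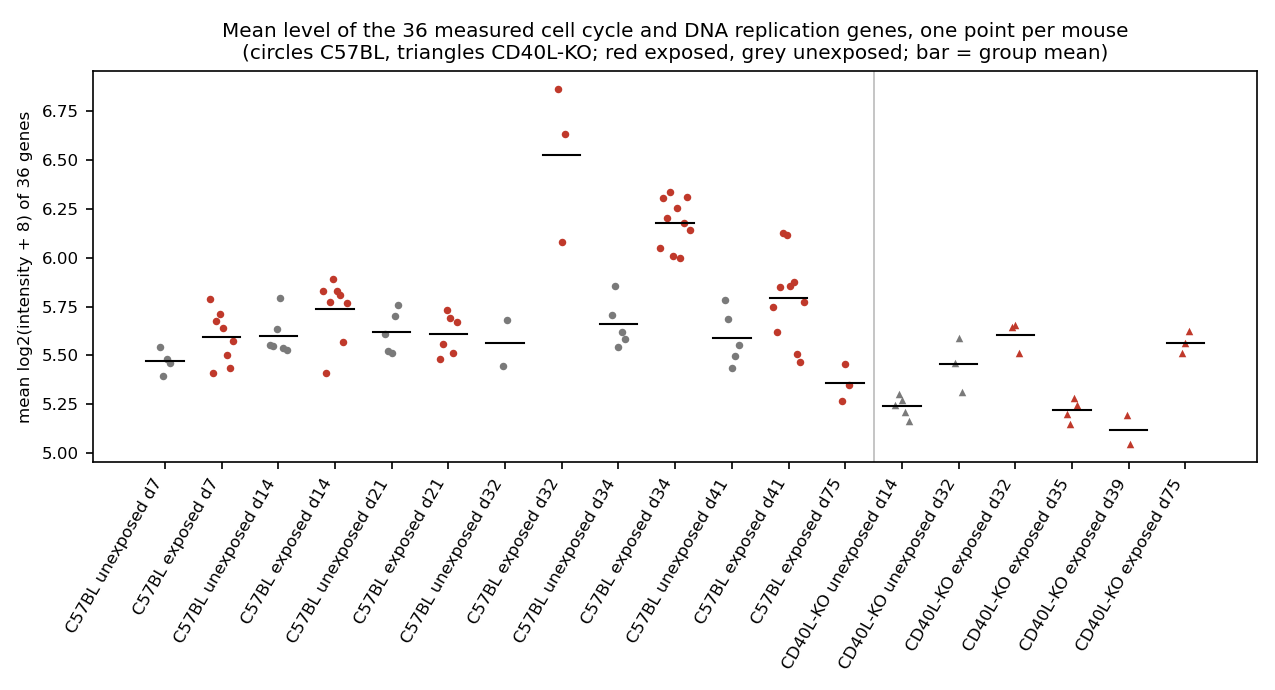
Mean log2(intensity + 8) of the 36 measured members (vertical axis), a point for each mouse, in the 19 groups; bars are group means. Exposed C57BL mice of day 32 (6.08 to 6.86) and day 34 (6.00 to 6.34) lie above their unexposed mice, and the CD40L-KO groups stay at 5.66 or below.

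At day 32 in C57BL mice (experiment 1, 3 exposed and 2 unexposed) the question was whether exposure altered these genes at all. Of the 36 members 5 rose (13.9%), against 1.35% of all genes called higher, and 0 fell. The median difference was 0.97, against -0.01 over all genes, and 34 of 36 members had a positive difference. In 29 members (80.6%) every exposed mouse lay above every unexposed mouse, against 17.0% of all genes. The 5 called members were Cdk1, Ccnb2, Mki67, Kif20a and Mcm4. An unadjusted p under 0.05, in either direction, was found for 27 members (75%), against 17.5% of all genes.

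Among licensing and helicase genes, 1 of 8 rose. Mcm4, a helicase subunit, was at 7.12, 6.71 and 7.09 in exposed and 5.94 and 6.15 in unexposed mice. The groups did not overlap, and the difference was 0.93 (SE 0.17, adjusted p = 0.0258). Mcm5, another subunit, was at 8.85, 7.56 and 8.54 against 6.90 and 7.03, a difference of 1.35 (SE 0.41) that was not called (adjusted p = 0.123). Its spread among the 3 exposed mice was wide, with mouse 2 lowest. Cdc45, which joins MCM in the active helicase, differed by 1.49 (SE 0.34, adjusted p = 0.0597). Of the replication fork genes 0 of 5 was called, with differences from 0.29 for the ligase Lig1 to 0.92 for the flap nuclease Fen1. Pcna differed by 0.82 (SE 0.21, adjusted p = 0.0838). Of the nucleotide supply genes 0 of 3 was called. Rrm2, the regulated subunit of ribonucleotide reductase, was at 7.14, 5.53 and 6.79 against 4.90 and 5.21. The groups did not overlap, but exposed mouse 2 stood close to the unexposed mice, and the difference of 1.43 (SE 0.41) had an adjusted p of 0.112.

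Among cyclins and mitotic kinases, 2 of 7 rose. Cdk1, the kinase that drives entry into mitosis, was at 7.50, 6.56 and 7.31 in exposed mice and at 4.94 and 5.25 in unexposed mice. All 3 exposed mice were well above both unexposed mice, and Cdk1 had the largest difference of the set, 2.03 (SE 0.27, adjusted p = 0.0104), or 4.08-fold. Its partner Ccnb2 was at 9.06, 7.93 and 8.70 against 6.91 and 6.97, a rise of 1.63 (SE 0.32, adjusted p = 0.0373). The partner cyclin of S phase and mitosis, Ccna2, differed by 1.09 (SE 0.25, adjusted p = 0.0566). The checkpoint and anaphase genes (0 of 4 called) had differences between 0.84 for Bub1 and 1.31 for Mad2l1.

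Among spindle and chromosome genes, 2 of 7 rose. Mki67, which coats mitotic chromosomes and is the common marker of dividing cells, was at 7.12, 6.12 and 6.64 in exposed and 5.13 and 4.88 in unexposed mice, a rise of 1.62 (SE 0.29, adjusted p = 0.0258). Kif20a, a kinesin of cytokinesis, was at 7.29, 6.29 and 6.78 against 5.38 and 5.27, a rise of 1.46 (SE 0.28, adjusted p = 0.0323). Neither gene overlapped between the groups. Birc5 was at 7.03, 6.33 and 7.40 against 4.68 and 5.25. Its difference of 1.96 (SE 0.43) was the second largest but was not called (adjusted p = 0.0521). Top2a, the topoisomerase that untangles chromosomes, was at 6.30, 5.50 and 6.24 against 4.90 and 4.92, a difference of 1.10 (SE 0.32, adjusted p = 0.116). The transcription factors E2f1 and Foxm1 differed by 0.37 and 0.57 and were not called.

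Exposed mouse 2 was the lowest of the 3 exposed mice for Cdk1, Mcm5, Rrm2, Mki67, Birc5 and Top2a. It also had the lowest T cell and macrophage marker means. The mean of 11 T cell markers was 6.89, 5.89 and 6.44 in exposed mice and 5.23 and 5.41 in unexposed mice. Of the 11, 1 was called higher (Cd3d, 9.09%, against 1.35% of all genes). The mean of 10 macrophage markers was 8.13, 7.54 and 7.87 against 7.15 and 7.13. Of the 10, 4 were called higher (40%, against 1.35% of all genes): Cd68, C1qa, C1qb and C1qc. The part of these cell types in the members' differences was not tested. The mean of 6 thymocyte markers was 5.21, 5.10 and 5.38 in exposed mice and 5.40 and 5.36 in unexposed mice, with Rag2 and Ptcra near the floor. With exposed mouse 2 left out 25 members were called, with exposed mouse 1 or 3 left out 1, and with either unexposed mouse left out 0. These counts stand without the share of all genes called with the same mouse left out. They show how far the calls rest on single mice, and do not compare the members with other genes.

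At day 34 (experiment 2, 10 exposed and 5 unexposed C57BL mice) 15 of 36 members rose (41.7%), against 5.26% of all genes, and 0 fell. The median difference was 0.49, against -0.01 over all genes, and 32 of 36 were positive. In 8 members (22.2%) every exposed mouse lay above every unexposed mouse, against 1.26% of all genes: Mcm3, Cdc6, Fen1, Tk1, Cks2, Birc5, Kif11 and Mki67. For 14 of the 15 called members all 10 exposed mice lay above the mean of the unexposed mice, and for Bub1 9 of 10 did. With unexposed mouse 3 or 4 left out 10 members were called, and Mcm5, Rrm1, Aurka, Bub1 and Kif11 lost their call in both cases. Mcm4, Mcm5, Rrm1 and Kif11 also lost it with some single exposed mice left out. Mcm3, Mcm7, Cdc6, Fen1, Rrm2, Tk1, Cks2, Birc5 and Mki67 kept theirs whichever mouse was left out. Days 32 and 34 share no array. Mcm4 and Mki67 were called on both days, and over the 36 members the differences of both days had a Pearson correlation of 0.67 and a Spearman correlation of 0.66, against 0.45 and 0.3 over all genes. Genes are not independent replicates, so these are descriptions.

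Among the licensing genes 5 of 8 rose. Cdc6, the loader of the helicase, ran from 5.22 to 5.92 with a median of 5.58 in exposed mice and from 4.38 to 5.20 in unexposed mice. The groups met closely without overlapping, and Cdc6 rose by 0.65 (SE 0.12, adjusted p = 0.000646). Mcm7 also rose by 0.65 (SE 0.13, adjusted p = 0.00184), and Mcm3, Mcm5 and Mcm4 by 0.52, 0.50 and 0.48. Mcm5 ran from 6.98 to 7.89 with a median of 7.36, against 7.17, 7.03, 6.83, 6.69 and 6.91 in the unexposed mice. Its groups overlapped. Mcm2 differed by 0.07 and Mcm6, near the floor, by -0.00. Of the fork genes Fen1 rose, by 0.70 (SE 0.14, adjusted p = 0.00115), and Pcna differed by 0.46 (adjusted p = 0.0702).

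All 3 measured nucleotide supply genes rose by their brightest probe set, although the second probe sets of Tk1 and Rrm1 differed by 0.12 and 0. Tk1, the thymidine kinase of dividing cells, ran from 6.61 to 7.22 in exposed mice and was at 4.46, 6.46, 6.19, 6.02 and 6.19 in unexposed mice, a rise of 1.11 (SE 0.26, adjusted p = 0.00533). Rrm2 ran from 5.50 to 6.33 with a median of 5.76, against 5.62, 4.45, 4.73, 4.54 and 4.54, a rise of 1.03 (SE 0.18, adjusted p = 0.000222). Unexposed mouse 1 was the exception in both genes: its Tk1 level was far below, and its Rrm2 level above, those of the other unexposed mice. Rrm1, the large subunit, rose by 0.79 (SE 0.24, adjusted p = 0.0357).

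Among the mitotic genes 6 of 18 rose. Birc5 ran from 5.78 to 6.86 with a median of 6.24 in exposed mice and was at 4.47, 4.98, 5.49, 4.75 and 4.53 in unexposed mice. The groups did not overlap, and its rise of 1.40 (SE 0.21, adjusted p = 4.6e-05), or 2.64-fold, was the largest among the members. Mki67 ran from 5.99 to 6.79 with a median of 6.29, against 4.99, 5.24, 4.78, 4.96 and 4.93, a rise of 1.38 (SE 0.17, adjusted p = 1.74e-06). The lowest exposed mouse was well above the highest unexposed mouse. Cks2, a small subunit of Cdk complexes, rose by 0.90 (SE 0.16, adjusted p = 0.000313). Aurka, Bub1 and the spindle kinesin Kif11 rose by 0.68, 0.57 and 0.49.

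Cdk1, with the largest difference of day 32, was not called at day 34. It ran from 6.13 to 6.99 with a median of 6.64 in exposed mice and was at 7.37, 5.95, 5.31, 5.51 and 5.61 in unexposed mice, a difference of 0.65 (SE 0.26, adjusted p = 0.111). Unexposed mouse 1, again apart from the rest, exceeded all exposed mice, and the other 4 unexposed mice lay below all of them. With that mouse left out Cdk1 was called, at 1.01 (SE 0.22, adjusted p = 0.00534), and the count of called members was 16. Its log2 Gapdh ratio between 3' and 5' probe sets was the highest of its group, 2.13. Top2a ran from 5.12 to 5.95 with a median of 5.72, against 5.69, 5.22, 4.86, 5.49 and 4.6, and overlapped (difference 0.48, SE 0.21, adjusted p = 0.149). E2f1 differed by 0.46 and Foxm1 by -0.23, neither called.

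**Figure D3:**
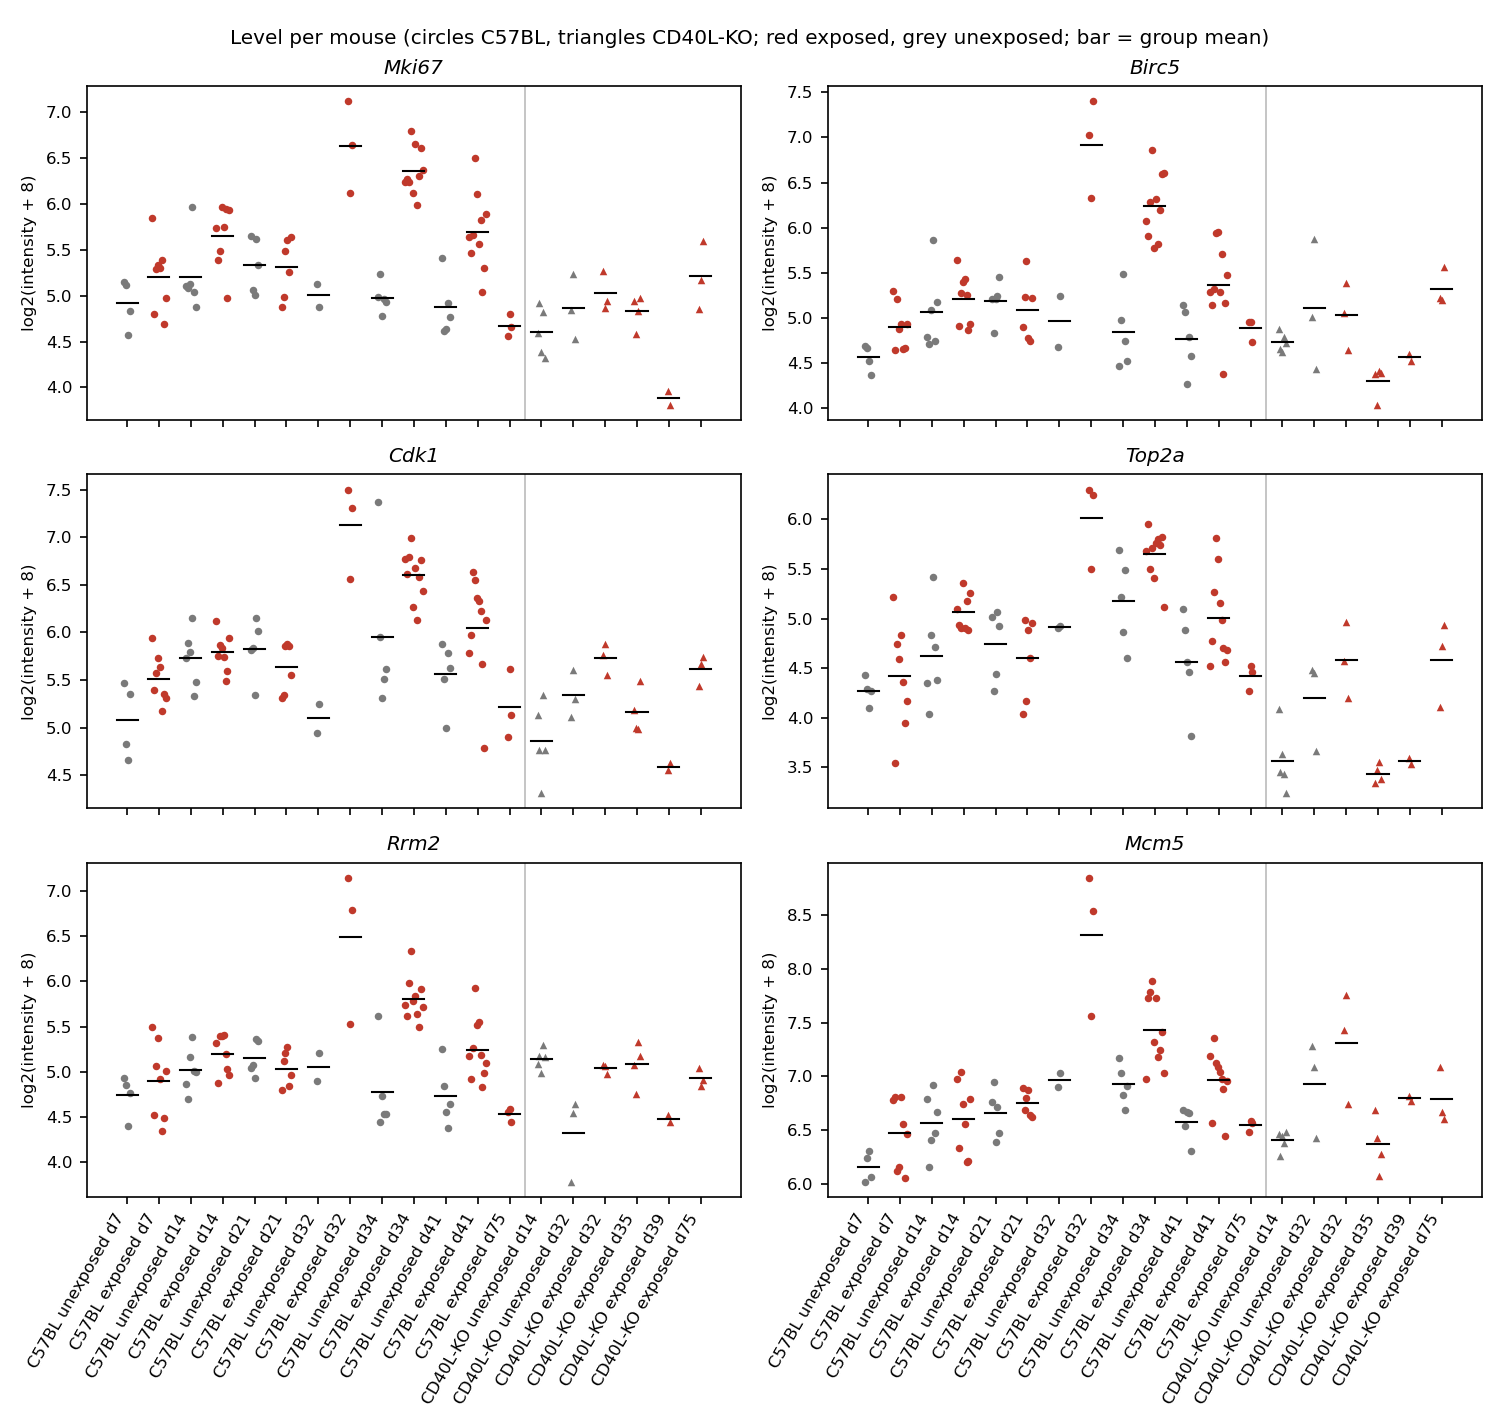
Level of Mki67, Birc5, Cdk1, Top2a, Rrm2 and Mcm5 (log2(intensity + 8), vertical axes) in every mouse of the 19 groups, with bars at group means. Mki67 and Birc5 of exposed C57BL mice lie above all unexposed mice of the same day at days 32 and 34, and 1 unexposed mouse of day 34 has Cdk1 at 7.37.

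The arrays with squamous transcripts were unevenly spread at day 34, and so was the log2 ratio between the 3' and 5' Gapdh probe sets, a measure of RNA quality, which ran from 0.27 to 2.13 in unexposed and from -0.16 to 1.59 in exposed mice. With the squamous mean as a covariate 10 members rose, and with the Gapdh ratio 8. Without the squamous arrays 1 unexposed mouse was left and 0 members were called, with 13 at an unadjusted p under 0.05 (36.1%, against 9.13% of all genes) and the median difference at 0.52. With the unexposed mice of days 34 and 41 that lacked squamous transcripts pooled, an alternative chosen after seeing the data, 19 rose. The counts of 10, 8 and 19 stand without the share of all genes called under the same model. They do not compare the members with other genes. The T cell marker mean ran from 5.94 to 6.31 in exposed and from 5.52 to 6.25 in unexposed mice. Of the 11 markers, 3 were called higher (27.3%, against 5.26% of all genes). The macrophage mean ran from 7.29 to 8.03 against 6.86 to 7.16. Of the 10 markers, 5 were called higher (50%, against 5.26%): Cd68, Mrc1, C1qa, C1qb and C1qc. Of 9 B cell markers 4 were called lower (44.4%), against 2.96% of all genes. None of the 6 germinal centre markers was called (0). The part of these cells in the members' rise was not tested.

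At day 41 of the same experiment 1 of 36 members rose (2.78%), against 0.388% of all genes, and 0 fell. The median difference was 0.19, against -0.02 over all genes, and 30 of 36 members had a positive difference, against 44.5% of all genes. By limma 11 members (30.6%) had an unadjusted p under 0.05, in either direction, against 7.39% of all genes. No member (0) had groups that did not overlap, against 0.739% of all genes. The called member was Mki67, which ran from 5.04 to 6.5 with a median of 5.65 in exposed mice and was at 5.41, 4.62, 4.64, 4.92 and 4.77 in unexposed mice, a rise of 0.83 (SE 0.17, adjusted p = 0.0141). It lost its call when unexposed mouse 2, 3 or 5 was left out, with 0 members called. Birc5 differed by 0.60 (adjusted p = 0.354) and Mcm7 by 0.49 (adjusted p = 0.114). The effect of day 41 was compared with that of day 34 in the same fit. By limma 0 members were called lower, against 0.0606% of all genes, and 12 members (33.3%) had an unadjusted p under 0.05, against 10.7%. The median of this difference was -0.24 against -0.01 over all genes, and 5 of 36 were positive. Tk1 was at -1.01 (SE 0.36, adjusted p = 0.28) and Birc5 at -0.80 (SE 0.30, adjusted p = 0.306). A smaller effect at day 41 was therefore not established gene by gene. Leaving out unexposed mouse 5 of day 34 gave 1 call.

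Before day 32 no member was called in C57BL mice (experiment 3). By limma 0 of 36 passed at day 7, against 0.0% of all genes called higher, with 7 (19.4%) at an unadjusted p under 0.05, against 6.61% of all genes. At day 14 it was 0, against 0.218%, with 6 (16.7%) at an unadjusted p under 0.05, against 7.93%. At day 21 it was 0, against 0.0%, with 6 (16.7%), against 11.6%. The median differences were 0.13, 0.16 and 0, against -0.01, 0 and 0.01 over all genes. Differences were positive for 28, 29 and 17 of 36 members, against 47.4%, 49.1% and 51.5% of all genes. At day 7 every exposed mouse lay above every unexposed mouse for 2 members (5.56%), against 0.461% of all genes. At days 14 and 21 this held for 0 members, against 0.109% and 0.485%. The smallest p at day 7 was that of Pcna (0.33, SE 0.09, adjusted p = 0.305), and Mki67 differed by 0.45 (SE 0.18, adjusted p = 0.471) at day 14. At day 21 Tk1 was at -0.76 (SE 0.24, adjusted p = 0.254).

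**Figure D4:**
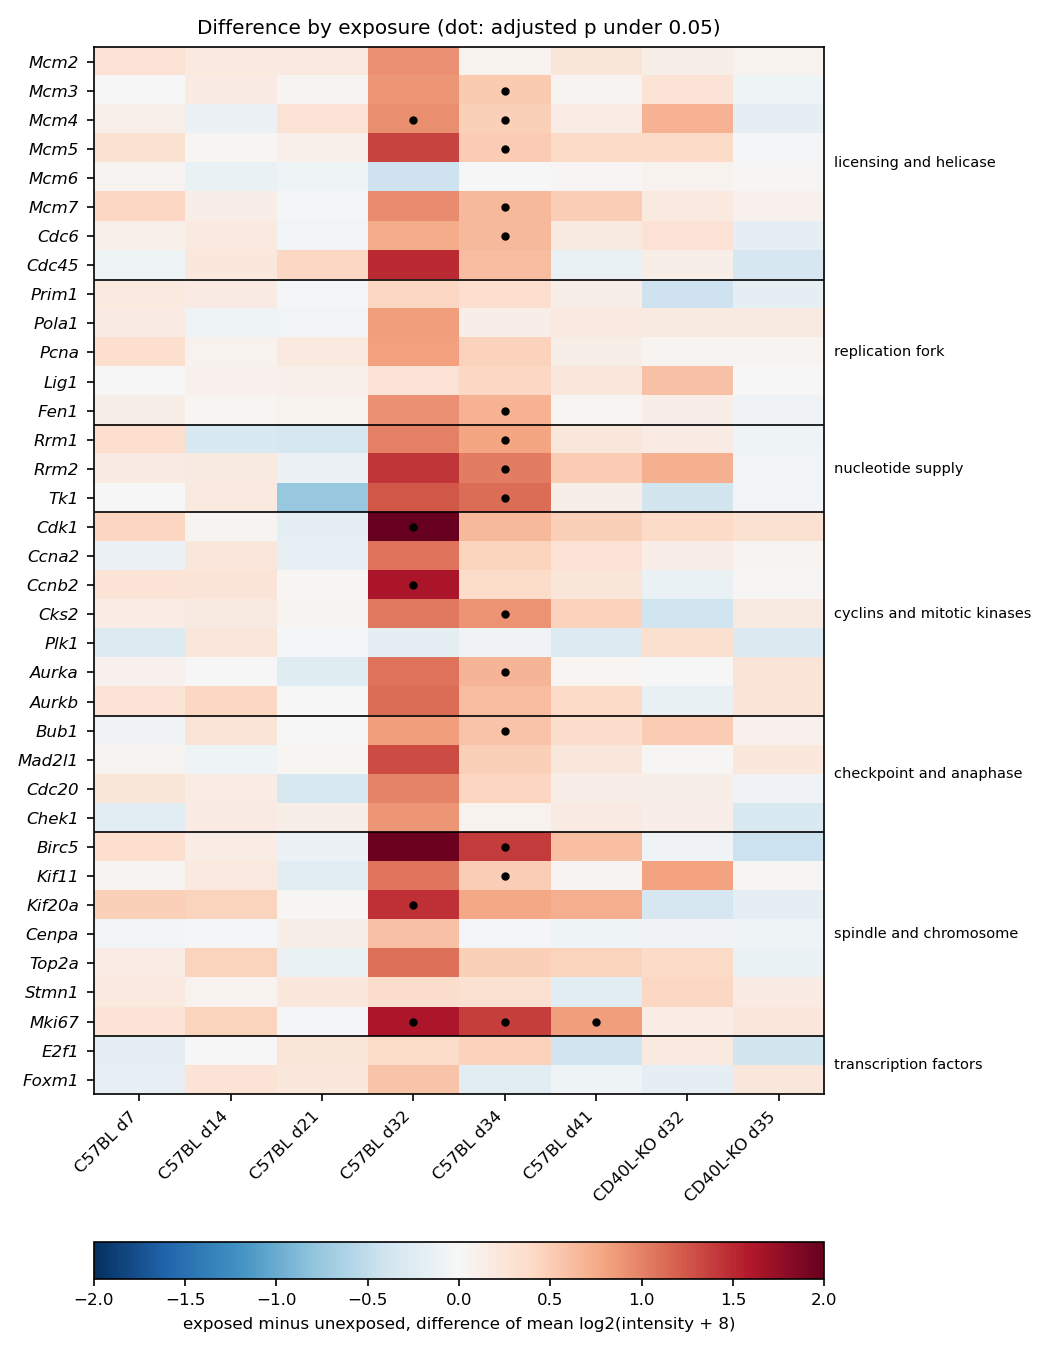
Exposed minus unexposed difference of mean log2(intensity + 8) for the 36 members (rows, by role) in 8 comparisons (columns), with red for higher in exposed mice and a dot for adjusted p under 0.05. Dots stand in 5 rows at day 32, 15 at day 34 and 1 at day 41 in C57BL mice, and in 0 rows in CD40L-KO mice.

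In CD40L-KO mice exposure was compared at day 32 (3 against 3 mice, experiment 1) and day 35 (4 against 5, experiment 4). By limma 0 of 36 members was called at day 32, against 0.0606% of all genes called higher, with 2 (5.56%) at an unadjusted p under 0.05, below the 13.9% of all genes. At day 35 0 was called, against 0.0%, with 2 (5.56%) at an unadjusted p under 0.05, against 9.32%. Groups did not overlap, with exposed mice higher, for 4 members at day 32 (11.1%, against 13.6% of all genes) and for 1 at day 35 (2.78%, against 2.08%). The median differences were 0.14 and -0.02, against 0.06 and -0.01 over all genes. Between these comparisons, which share no array, the members' differences had a Pearson correlation of -0.04 and a Spearman correlation of -0.08.

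Cdk1 was at 5.76, 5.88 and 5.55 in exposed CD40L-KO mice of day 32 and at 5.11, 5.60 and 5.30 in unexposed ones, with overlap and a difference of 0.39 (SE 0.24, 95% interval -0.14 to 0.93, adjusted p = 0.498). Mki67 was at 5.27, 4.87 and 4.94 against 4.84, 5.24 and 4.53, a difference of 0.15 (95% interval -0.42 to 0.73). Birc5 was at 5.06, 5.39 and 4.65 against 5.01, 5.88 and 4.44, a difference of -0.07 (95% interval -0.92 to 0.78). These ranges overlapped in all 3 genes. Rrm2 differed by 0.71 (95% interval -0.10 to 1.53), and its 3 exposed mice, at 5.08, 5.07 and 4.98, lay above the unexposed mice at 3.79, 4.55 and 4.64. Mcm4 came nearest to a call, at 0.70 (SE 0.15, adjusted p = 0.0978). The 95% interval included 0 for 34 of 36 members.

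At day 35 Mki67 was at 4.94, 4.58, 4.83 and 4.98 in exposed CD40L-KO mice and at 4.59, 4.92, 4.39, 4.82 and 4.32 in the unexposed mice, a difference of 0.23 (95% interval -0.10 to 0.55). Birc5 was at 4.38, 4.04, 4.41 and 4.39 against 4.88, 4.66, 4.62, 4.79 and 4.72. All 4 exposed mice were below all 5 unexposed mice, and the difference of -0.43 (SE 0.11, adjusted p = 0.347) was not called. Rrm2 was at 5.08, 4.76, 5.33 and 5.18 against 5.09, 5.17, 4.99, 5.30 and 5.16, a difference of -0.05 (95% interval -0.32 to 0.22). The interval of day 35 included 0 for 34 of 36 members, all but Birc5 and Plk1, both lower in exposed mice. Plk1 was lower by its brightest probe set alone (-0.29), and its other probe sets differed by 0.31 and 0.07.

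The effect of exposure was compared between strains directly. At day 32, within experiment 1, the effect in CD40L-KO mice minus that in C57BL mice had a median of -0.78 over the members, against 0.07 over all genes, and 4 of 36 were positive. By limma 0 members were called lower, against 0.121% of all genes, and 14 (38.9%) had an unadjusted p under 0.05, against 14.1%. Without the squamous arrays, which here were 2 unexposed and 1 exposed CD40L-KO mice, 4 members (11.1%) did, against 8.28%, and the median was -0.66. Kif20a was at -1.80 (SE 0.37, adjusted p = 0.097), Cdk1 at -1.63 (SE 0.36, adjusted p = 0.106) and Birc5 at -2.03 (SE 0.57, adjusted p = 0.182). The other, dimmer probe set of Kif20a gave 0.22 for this difference, the opposite sign. With exposed C57BL mouse 2 left out 6 members were called. The strains' effects at days 35 and 34 were compared across experiments 4 and 2. There 3 of 36 members (8.33%) had a lower effect in CD40L-KO mice, against 0.473% of all genes. They were Birc5 at -1.83 (SE 0.27, adjusted p = 0.000644), Mki67 at -1.15 (SE 0.20, adjusted p = 0.0078) and Rrm2 at -1.08 (SE 0.25, adjusted p = 0.0371). The median was -0.50, against -0.01 over all genes. Strain, experiment, day and the sex-linked transcripts differ together in this comparison and cannot be told apart. Without the squamous arrays 0 members were called, with the median at -0.58 and 14 members (38.9%) at an unadjusted p under 0.05, against 8.37%. Leaving out unexposed CD40L-KO mouse 1 gave 5 calls. Birc5 and Mki67 kept their call whichever mouse was left out, and Rrm2 lost its call for 15 of the mice left out in turn.

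For days 39 and 75 no experiment is stated, and no unexposed group of those days was analysed here. At day 75 exposed CD40L-KO mice were compared with the unexposed CD40L-KO mice of day 32, so day, source and exposure cannot be told apart. The sex-linked transcripts differed as well: Eif2s3y was at 6.14 to 6.30 and Xist at 3.77 to 4.00 at day 75, against 3.42 to 4.24 and 6.85 to 7.35 in the mice of day 32, so sex cannot be told apart from these either. There 1 of 36 members rose (2.78%), below the 5.58% of all genes called higher: Mcm4 by 0.68 (SE 0.14, adjusted p = 0.00964). No member fell (0), against 2.84% of all genes, and groups did not overlap, with day 75 higher, for 7 members (19.4%), against 16.3%. It lost its call with the squamous mean as a covariate or without the squamous arrays, where 0 members were called, and leaving out unexposed mouse 3 gave 2 calls. Between exposed CD40L-KO and C57BL mice of day 75, limma called 0 members higher, against 0.0848% of all genes, with 3 (8.33%) at an unadjusted p under 0.05, against 4.22%. In 14 members (38.9%) every CD40L-KO mouse lay above every C57BL mouse, against 7.96% of all genes. The median difference was 0.23, against 0.02 over all genes, and 29 of 36 were positive. Mki67 was at 4.86, 5.17 and 5.60 against 4.56, 4.80 and 4.66, a difference of 0.54 (SE 0.24, adjusted p = 1.0). The 2 CD40L-KO mice of day 39 had the lowest Mki67 levels of the series, 3.81 and 3.96.

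Of 33 further S phase genes 0 was called at day 32 and 2 rose at day 34 (6.06%), close to the 5.26% of all genes called higher: Uhrf1, which maintains DNA methylation at the fork, by 1.42 (SE 0.35, adjusted p = 0.00955) and the replication factor Mcm10 by 0.60. Of 30 further mitosis genes 4 rose at day 32 (13.3%, against 1.35% of all genes): Cks1b by 1.62, Lmnb1 by 1.43, Hmgb2 by 1.20 and Ccnf by 0.77. At day 34 12 rose (40%, against 5.26%) and 1 fell (3.33%, near the 2.96% of all genes called lower). The largest rises were Cks1b, a Cdk subunit like Cks2, by 1.32 (SE 0.22, adjusted p = 0.000161), Hmgb2 by 0.98, the kinesin Kif22 by 0.97 and the histone H2az1 by 0.94. The gene that fell was Pttg1 (securin), which holds back anaphase, by 0.35 (SE 0.11, adjusted p = 0.0467). Of 29 genes of G1 control and Cdk inhibition 1 fell at day 32 (3.45%, against 0.303% of all genes), the inhibitor Cdkn1c, by 1.25 (SE 0.21, adjusted p = 0.0211), and 0 was called at day 34. Median differences for the 3 lists were 0.39, 0.77 and 0.11 at day 32 and 0.10, 0.38 and 0.05 at day 34. Over all genes the median was -0.01 on both days. In CD40L-KO mice 0 genes of these lists were called at days 32 and 35. Over all genes 0.0606% were called higher and 0.0121% lower at day 32, and 0.0% either way at day 35. Almost any list would therefore hold no call there. For day 35 against day 34 the effect in CD40L-KO mice was lower for 4 of the 30 mitosis genes (13.3%, against 0.473% of all genes), Cks1b (-1.54), Prc1 (-1.15), Ttk (-1.12) and Kif22 (-1.12).

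Several members had further probe sets that did not follow the brightest, among them called members. For Mki67 the other probe set differed by -0.13 at day 32, -0.35 at day 34 and -0.18 at day 41, and for Mcm5 by -0.57 and -0.56 at days 32 and 34. The second probe set of Tk1, with a mean level of 4.06, differed by -0.62 at day 32 and 0.12 at day 34. That of Rrm1 lay near the floor at 3.31 and differed by 0.03 and 0. The other probe sets of Bub1, at 3.37 and 3.21, differed by -0.12 and -0.08 at day 34, where the brightest rose by 0.57. For Mcm3, the remaining called member with a second probe set, that one differed by 0.25 at day 34. Plk1 (Polo kinase) went the other way: its brightest probe set differed by -0.20 and -0.07, and its other probe sets by 1.06 and 1.38 at day 32 and by 0.54 and 0.64 at day 34. For Kif20a, called at day 32, the other probe set differed by 0.13 at day 32 and 0.68 at day 34. The brightest probe sets of Kif20a, Plk1 and E2f1 and another of Plk1 are of a type that can match several members of a gene family. Birc5, Cdk1, Ccnb2, Rrm2, Cks2 and Top2a have 1 probe set each, so no such check exists for them.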

How the data were processed

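Total RNA of lung homogenates was labelled with biotin and hybridised to Affymetrix arrays, per the labels' protocols. The authors deposited 1 intensity for each of 12487 probe sets on 95 arrays, on a linear scale, with 1 missing value. The method of probe summary was not given in the sources used here. Without the highest and lowest 2% of values, array means were 100.05 to 100.07, which shows a common scaling before deposit. Array medians lay between 35.5 and 46.3.

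Intensities were used as deposited, as log2(intensity + 8). The platform annotation paired 10855 probe sets with 1 symbol and 396 with several. After control probe sets were left out, 10832 were used, 10816 of them with an Entrez identifier in the RefSeq table, and gave 8251 genes, 2072 of them with several probe sets. Fits with lmFit and eBayes of limma 3.58.1 (R 4.3.3) took the groups of 1 experiment, experiments 2 and 4 for day 35 against day 34, and days 32, 39 and 75 together. The Benjamini-Hochberg adjustment ran over all 8251 genes, and the code was tested on simulated data. Summaries were made in Python 3.11.15 with numpy 2.4.6 and pandas 2.3.3, and plots with matplotlib 3.10.9.

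Alternatives were quantile normalization, offsets of 2 and 32, a filter on dim genes (5771 kept), a joint fit of the 95 arrays, averaging a gene's probe sets, the replicate number as a block, the squamous marker mean or the Gapdh ratio as a covariate, leaving out the squamous arrays and leaving out each mouse. Pooling the unexposed mice of days 34 and 41 was added after seeing the data. The members, lists, comparisons and alternatives were chosen with earlier results of these data known. Named genes were the members, with levels per mouse for Mki67, Top2a, Cdk1, Birc5, Mcm5 and Rrm2, statistics for called members and for at least 1 of each role, and up to 4 called genes of each further list. No pair of arrays was identical (0).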

Additional observations from a re-analysis of the deposited data

Results flagged for a closer look

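Among 84 combinations of gene and group of 4 to 10 mice, 5 had a mouse far from the others, and chance alone flags about 1 in 20. Mki67 was at 5.97 in unexposed C57BL mouse 4 of day 14, with the next mouse at 5.13. Rrm2 was at 5.62 in unexposed C57BL mouse 1 of day 34, with the next at 4.73. Cdk1 was at 4.78 in exposed C57BL mouse 9 of day 41, with the next at 5.67, and Birc5 at 4.38 in exposed mouse 8 of that day, with the next at 5.15. Birc5 was at 4.04 in exposed CD40L-KO mouse 2 of day 35, with the next at 4.38.

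The effect of exposure differed between CD40L-KO mice of day 35 and C57BL mice of day 34 by the test of the difference itself for Birc5 (-1.83), Mki67 (-1.15) and Rrm2 (-1.08). The second probe set of Mki67 gave 0 for the same difference.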

How the results depend on the processing

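Counts of called members moved most at day 32 in C57BL mice, where 5 were called: 26 with all 95 arrays in 1 fit, 9 with an offset of 32, without dim genes or with the Gapdh ratio, 3 with an offset of 2 or the mean of all probe sets, and 0 without the squamous arrays, although all those arrays were of CD40L-KO mice, which leaves fewer arrays to estimate the spread. Leaving out 1 mouse gave 0 to 25. At day 34 (15 called) the Gapdh ratio gave 8, and leaving out the squamous arrays, which left 1 unexposed mouse assumed to vary like the other groups, gave 0. Leaving out 1 mouse gave 10 to 18. Mcm5 turned to -0.03 at day 34 with the mean of its probe sets. At day 41 (1 called) the mean of all probe sets gave 0, all 95 arrays in 1 fit gave 2, and leaving out 1 mouse gave 0 to 1. The counts in this section stand without the share of all genes called under the same alternative. An alternative may move the calls of all genes, so the counts show dependence on processing alone.

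With all 95 arrays in 1 fit, 1 member was called at day 32 in CD40L-KO mice, 7 for the strain difference of day 32, 2 for day 41 against day 34, 7 for day 35 against day 34 and 2 for CD40L-KO mice at day 75. Without the squamous arrays the last 2 comparisons gave 0, and at day 75 the squamous mean as a covariate also gave 0. Leaving out 1 mouse gave 0 to 6 for the strain difference of day 32, 0 to 1 for day 41 against day 34, 2 to 5 for day 35 against day 34, and 1 to 2 at day 75. At days 7, 14 and 21, for CD40L-KO mice at day 35 and between strains at day 75, the count was 0 under each alternative run.

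Samples of the same replicate number did not vary together in general: the median correlation of their deviations was 0 or below in each fit. Single pairs ranged from -0.42 to 0.71, and in experiment 3 25 of 78 pairs exceeded 0.1. A median cannot tell whether some of the mice are paired. With the replicate number as a block 2 members were called at day 32, 13 at day 34, 1 at day 41 and 2 for day 35 against day 34. The causes of these shifts were not tested. Dim members such as Mcm6, Bub1 and Prim1 lie near the floor, where a change is understated.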

Other observations

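In CD40L-KO mice, some genes of cell cycle entry and of its inhibition differed between the exposed mice of day 75 and the unexposed mice of day 32. Of 29 genes of G1 control and Cdk inhibition, 3 (10.3%, against 2.84% of all genes) were called lower by limma: the Cdk inhibitors Cdkn1b (-1.09, SE 0.24, adjusted p = 0.0138) and Cdkn1a (-0.66, SE 0.15, adjusted p = 0.0143), and the kinase Cdk4 (-0.35, SE 0.11, adjusted p = 0.0499). Called higher were 2 of the 29 (6.9%), near the 5.58% of all genes: Mdm2, which degrades p53, by 0.90 (SE 0.22, adjusted p = 0.0207) and Rb1, which restrains E2F, by 0.66 (SE 0.18, adjusted p = 0.0366). Day, source of the mice, exposure, sex as read from Eif2s3y and Xist, and the squamous transcripts of 2 of the 3 unexposed mice cannot be told apart here.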
